A study of Mus musculus with 8 samples.

Results

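Open chromatin was compared between resting wild-type (WT) and Nfat5 knockout (KO) mouse macrophages, 2 libraries of each, by the positions of the ATAC-seq peaks that the authors called in each library. Peaks on the 21 main chromosomes of the 8 lists of the series were merged into 87260 regions, of which 75270 were called in at least 1 of the 4 untreated lists. A region was WT-only when both untreated WT lists and neither untreated KO list called it, and KO-only in the reverse case. By that rule 1944 regions were WT-only, 2.58% of the 75270, and 1393 were KO-only, 1.85%. Another 44099 regions, 58.6%, were called in all 4 untreated lists.

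Bone marrow cells of wild-type and NFAT5-deficient mice had been grown for 7 days with 25% of the medium conditioned by L929 fibroblasts, whose secreted M-CSF drives macrophage growth, and then received no stimulus. The other 4 libraries, 2 WT and 2 KO, came from cells treated for 2 h with 0.3 ng/ml E. coli lipopolysaccharide (LPS), a bacterial membrane component, and serve here for the merge and as lists whose calls did not choose the regions. The series' design text calls the 2 libraries of a group biological replicates. The labels state neither the allele and the deleted part of the gene nor the strain, age and sex of the mice or any pooling. Each code in the titles occurs for both an LPS and an untreated library, so the LPS lists may come from the same animals, which is not stated.

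NFAT5, also called TonEBP, is a transcription factor of the Rel family. It is best known for the response to hypertonic stress, in which it binds tonicity elements and raises the genes of osmolyte transporters and of aldose reductase. In macrophages it has also been linked to genes of the response to bacterial products and to MHC class II. ATAC-seq marks DNA that a transposase can reach, usually promoters and enhancers that are free of nucleosomes.

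The deposited lists hold peak positions only, with no height, score or read count. Every value given below for a region is therefore the number of bases that a library's peaks covered there, and 0 means that no peak was called, which does not show closed chromatin. WT library 1 had 60117 peaks, WT library 2 had 59218, KO library 1 had 56346 and KO library 2 had 59811. The peaks covered 31.2, 30.9, 29.6 and 30.4 Mb in the same order, so both WT lists lay above both KO lists in covered sequence (two-sided exact permutation p = 0.333, the smallest that 2 against 2 allows), while the number of peaks overlapped between genotypes (exact p = 0.667). Each of the 10 macrophage markers, among them Csf1r, Adgre1 and Spi1, had a region on the gene called in all 4 lists. Peaks on genes of other cell types were also present: 3 of 7 T cell, 2 of 6 B cell, 1 of 6 neutrophil, 5 of 5 dendritic cell, 2 of 5 erythroid, 2 of 6 fibroblast and 1 of 5 mast cell markers had a region on the gene in all 4 lists. Cd3e, Elane, Gata1 and Dcn had no region on the gene in any untreated list. The Y chromosome carried 33 and 38 peaks in the libraries numbered 1 and 59 and 96 in those numbered 2, so this difference followed the replicate number and not the genotype.

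At Nfat5 itself, on chromosome 8, 6 regions were called and 4 of them were in all 4 untreated lists. The region at the start of the gene, from 107292751 to 107293816 (GRCm38, as all positions), was covered over 1066 and 795 bases in WT and over 963 and 897 in KO. One region inside the gene, from 107329619 to 107329854, was KO-only, with 192 and 236 bases. The promoter region thus had a peak in both genotypes. Since the deleted part is not known, these peaks do not check the genotype.

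A pair of classical osmotic stress genes were covered over more bases in both WT lists than in both KO lists. Slc6a12 encodes the betaine transporter and Slc5a3 the myo-inositol transporter, which bring osmolytes into cells. The sequences before their start sites are shown because these 2 genes hold WT-only or mostly WT-covered regions at or near the promoter, and because NFAT5 binds sites with the core TGGAAA. Each stretch is the 250 bases upstream of a RefSeq start site in GRCm38.p6, on the gene's strand, with TGGAAA in capitals. Slc6a12 has 5 start sites in the table and the first is shown, at chr6:121342324-121342573, plus strand. Slc5a3 is shown at chr16:92058072-92058321, plus strand.
Slc6a12: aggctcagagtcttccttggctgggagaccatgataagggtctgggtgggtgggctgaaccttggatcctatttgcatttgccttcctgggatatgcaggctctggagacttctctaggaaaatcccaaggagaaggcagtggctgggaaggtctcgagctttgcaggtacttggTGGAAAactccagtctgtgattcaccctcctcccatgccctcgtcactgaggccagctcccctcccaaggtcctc
Slc5a3: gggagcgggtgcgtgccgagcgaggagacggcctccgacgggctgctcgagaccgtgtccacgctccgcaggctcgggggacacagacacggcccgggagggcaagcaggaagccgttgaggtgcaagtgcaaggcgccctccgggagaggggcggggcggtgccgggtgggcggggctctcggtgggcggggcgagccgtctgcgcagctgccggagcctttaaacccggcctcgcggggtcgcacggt
The Slc6a12 stretch holds 1 TGGAAA and lies before the WT-only region of the gene. The 250 bases upstream of the later start sites whose windows overlap that region, at chr6:121343006-121343255 and chr6:121343138-121343387, hold 0. The Slc5a3 stretch holds 0 and lies within the region around its promoter. Both genes were picked for print after their values were seen.

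Slc6a12 had a WT-only region at a later start site, inside the gene, on chromosome 6 from 121343196 to 121343435. It was covered over 210 and 239 bases in the WT lists and had no peak in either KO list. The LPS lists, whose calls the rule did not use, gave 232 and 225 bases in WT and again none in KO. All 4 WT lists of the series thus called this region and all 4 KO lists did not. Its peaks were narrow, in untreated WT lists whose narrowest peaks spanned 174 and 164 bases.

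Slc5a3 was covered over fewer bases in both KO lists at each of its 4 regions. On chromosome 16 a WT-only region from 92037971 to 92038270, 20.1 kb before the gene, was covered over 232 and 300 bases in WT. The region around the promoter, from 92057605 to 92058628, was covered over 601 and 1024 bases in WT, over 354 in KO library 1 and over none in KO library 2. A more distant region, from 92019153 to 92019751, was covered over 564 and 485 bases in WT and over 0 and 215 in KO. The last, from 92039587 to 92039980, was called in all 4 lists and was covered over 394 and 379 bases in WT and over 182 and 357 in KO. With LPS the promoter region overlapped between genotypes, at 681 and 501 bases in WT and 681 and 0 in KO. The WT-only region had no peak in any LPS list.

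Akr1b3 encodes aldose reductase, which makes sorbitol. Its WT-only region, on chromosome 6 from 34277759 to 34278007, lay 25.9 kb from the gene and was covered over 209 and 220 bases in WT. Of the LPS lists WT library 1 alone called it. The region on the Akr1b3 gene itself was called in all 4 untreated lists, at 887 and 891 bases in WT and 943 and 913 in KO. On the gene itself both KO lists thus lay above both WT lists. Sgk1, a kinase raised by salt and cell shrinkage, held the remaining WT-only region of the group, on chromosome 10 from 21907030 to 21907313, with 278 and 191 bases. No LPS list called it.

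Of 19 osmotic stress genes with a region, 4 had a WT-only region and 2 had a KO-only region, Nfat5 and Vegfc, a lymphatic growth factor. These are 21.1% and 10.5%, beside 9.73% and 6.46% of all 16307 protein-coding genes with a region. Counting only regions within 25 kb of the gene left 3 and 1 genes, and only regions on the gene body 2 and 1. Slc6a6, the taurine transporter and an NFAT5 target in many cells, had 13 regions, 10 of them in all 4 lists, and none was WT-only or KO-only.

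Summing the covered bases over all regions of a gene gives a second view, which was added after the values at these genes had been seen. At Slc5a3 the sums were 1791 and 2188 bases in WT and 536 and 572 in KO. At Slc6a12 they were 1122 and 1268 in WT and 438 and 653 in KO. Relative to the gene's mean over the 4 lists, these were the widest gaps among the 19 genes in the direction of WT. With LPS the Slc6a12 sums were 1380 and 1630 in WT and 335 and 758 in KO, and the Slc5a3 sums 1095 and 999 in WT and 681 and 0 in KO, so neither gene overlapped between genotypes there either. Slc6a6 did not separate, at 5271 and 5741 bases in WT and 5703 and 5369 in KO. Vegfc went the other way, at 2185 and 1473 in WT and 3301 and 3495 in KO, but overlapped with LPS.

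Both WT lists exceeded both KO lists at 9 of the 19 osmotic stress genes and the reverse held at 2. Over all genes these shares were 24% and 12%, in lists that cover more sequence in WT. When each sum was taken as a share of all bases its list covered, the counts were 6 and 2 of 19, beside 17.8% and 17.4% of all genes. Slc5a3, Slc6a12, Akr1b3, Smpd1 and Ddx5 were among the 6. With LPS, 5 of the 9 genes had both WT lists above both KO lists again (S100a4, Sgk1, Slc38a2, Slc5a3 and Slc6a12) and 0 had the reverse. Over all 81 genes of the lists that were higher in both untreated WT lists, these shares were 44.4% and 2.47%, so the recurrence in this group lay near that of the lists as a whole. With 2 libraries against 2 no single gene could pass a permutation test.

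**Figure D1:**
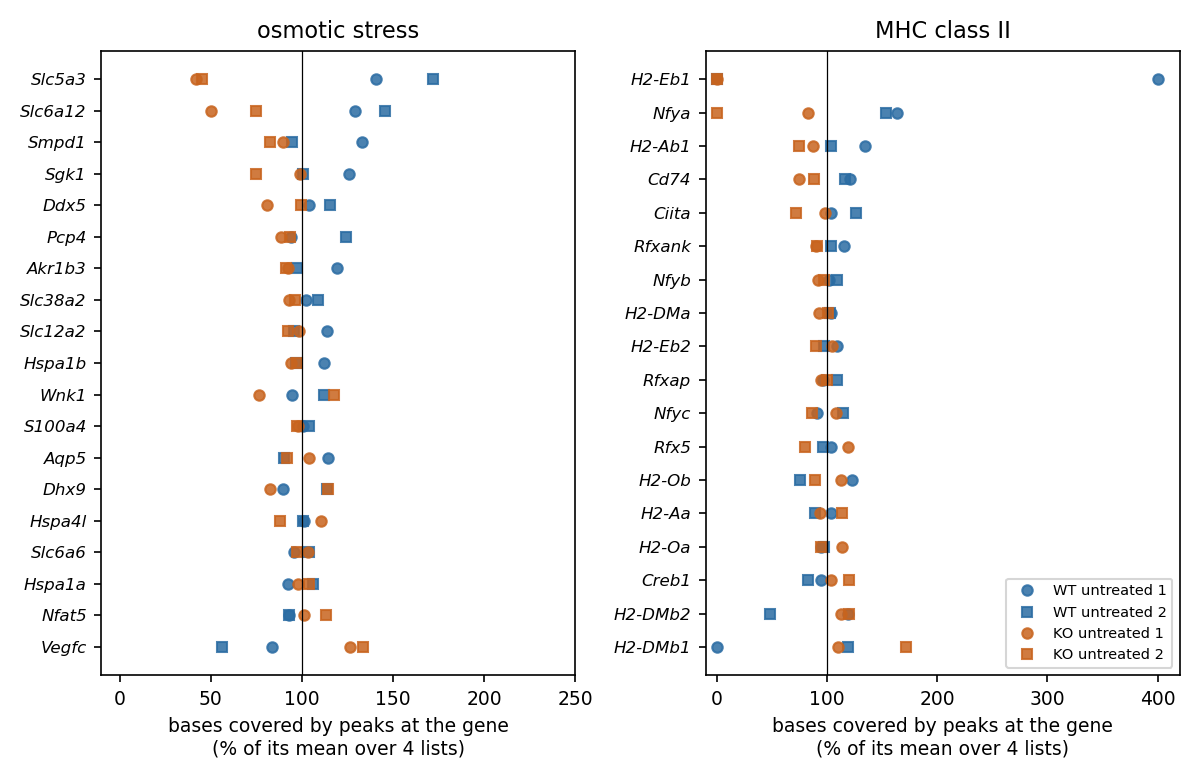
Bases covered by peaks over all regions of a gene, as a percentage of the gene's mean over the 4 untreated lists (horizontal axis), for the osmotic stress genes (left) and the MHC class II genes (right). Each gene has 1 point per list, blue for WT and orange for KO; Slc5a3 and Slc6a12 lie at the top of the left panel, with WT and KO points apart, and H2-Eb1 rests on WT library 1 alone.

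MHC class II genes present antigen to helper T cells, and Ciita encodes their master coactivator. The list also holds regulators that present no antigen, among them Ciita, Creb1, Nfya, Nfyb and Rfxank, so its shares are not those of presenting genes alone. None of the 18 genes had a WT-only region (9.73% of all genes did), and 1, Creb1, had a KO-only region (5.56%, beside 6.46%). A call that needs 50% of the region covered gave 1 and 1. In summed bases both WT lists exceeded both KO lists at 7 of 18 genes (38.9%), with or without scaling to the list. The reverse held at 1 (5.56%). Over all genes these shares were 24% and 12%, or 17.8% and 17.4% after scaling. The 7 were Cd74, Ciita, H2-Ab1, H2-DMa, Nfya, Nfyb and Rfxank. Cd74, the invariant chain, had 1449 and 1391 bases in WT and 899 and 1060 in KO. H2-Ab1, a class II beta chain, had 1197 and 927 in WT and 776 and 665 in KO. Ciita had 2322 and 2823 in WT and 2192 and 1602 in KO. These gaps were small beside those at Slc5a3, and at Ciita the WT and KO values nearest each other were 2322 and 2192. H2-Eb1, another beta chain, had 1102 bases in WT library 1 and no peak in the other 3 untreated lists, so the genotypes overlapped there at 0. With LPS 1 of the 7 genes, Cd74, again had both WT lists above both KO lists, and 1, Nfyb, had the reverse.

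At Ciita 3 of 9 regions were called in all 4 untreated lists. The widest of these, 3474 bases from the gene, from 10475744 to 10476540 on chromosome 16, was covered over 642 and 579 bases in WT and 574 and 451 in KO. The region from 10489242 to 10489712 was called by WT library 2 alone among the untreated lists, at 456 bases. It was then called by both WT lists with LPS, at 290 and 209 bases, and by neither KO list.

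Of 11 genes of the LPS response that have been linked to NFAT5, 2 had a WT-only region (18.2%, beside 9.73% of all genes) and 1 a KO-only region (9.09%, beside 6.46%). Within 25 kb of the gene 1 and 0 were left. In summed bases both WT lists exceeded both KO lists at 3 genes (Il6, Nos2 and Ptgs2) and the reverse held at 2 (Il12b and Il23a). These are 27.3% and 18.2%, beside 24% and 12% of all genes. After scaling to the list the counts were 2 and 2, beside 17.8% and 17.4% of all genes. Il12b, a subunit of interleukin 12, had 1 WT-only region, 4.14 kb before the gene on chromosome 11 from 44395598 to 44395927 with 278 and 330 bases, and 1 KO-only region, 44.9 kb before it from 44354927 to 44355200 with 238 and 177. Neither region kept its pattern with LPS: no LPS list called the first, and KO library 2 alone called the second. Ptgs2, which encodes the inducible cyclooxygenase, had a WT-only region 93.6 kb away. Il6, Tnf, Il1b, Ccl2 and Nos2 had no WT-only or KO-only region. The region at the Il6 promoter, from 30012771 to 30013492 on chromosome 5, was covered over 648 and 556 bases in WT and 529 and 557 in KO, so the genotypes overlapped.

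Of 40 early LPS response genes 4 had a WT-only region (Cxcl3, Jun, Nfkb1 and Ptgs2) and 2 a KO-only region (Atf3 and Tnfaip2). These are 10% and 5%, near the 9.73% and 6.46% of all genes. In summed bases WT exceeded KO at 11 (27.5%) and KO exceeded WT at 3 (7.5%), beside 24% and 12% of all genes. After scaling to the list the counts were 8 and 9, beside 17.8% and 17.4% of all genes. The WT share of this group thus lay near that of all genes, and WT did not outnumber KO after scaling. Of 27 interferon response genes 2 had a WT-only region, Isg15 and Ccl5 (7.41%, beside 9.73% of all genes), and 0 had a KO-only one. Isg15 is an ubiquitin-like protein that interferon induces, and Ccl5 is a chemokine. The Isg15 promoter region, from 156200648 to 156201166 on chromosome 4, was covered over 251 and 199 bases in untreated WT. With LPS it was called in all 4 lists, over 519 and 478 bases in WT and 246 and 244 in KO. The Ccl5 region, from 83534461 to 83535180 on chromosome 11, had 221 and 212 bases in the untreated WT lists and, after LPS, 720 and 702 in WT and 607 and 419 in KO. At both genes the WT lists thus lay above the KO lists with LPS too, while the untreated order follows from the choice of WT-only regions. Neither region stayed WT-only when a call needed 50% of the region covered.

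Among the genes of macrophage identity, Csf1r, the M-CSF receptor, had 5 regions, and all 5 were called in all 4 lists. Spi1, which encodes the myeloid factor PU.1, had 6, of which 4 were called in all 4 lists, and its summed bases were lower in WT, at 1969 and 2092, than in KO, at 2487 and 2695. Among the 10 macrophage markers the summed bases of Spi1, Adgre1 and Cd68 were higher in both KO lists than in both WT lists. Those of 0 were higher in WT. These are 30% and 0%, beside 12% and 24% of all genes. The longer list of 30 macrophage identity genes went the other way. There both WT lists exceeded both KO lists at 10 genes (33.3%) and the reverse held at 4 (13.3%), or at 7 and 5 after scaling to the list.

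Of 26 genes of cholesterol and lipid handling 4 had a KO-only region and 3 (Acaca, Fabp5 and Ppara) a WT-only one. These are 15.4% and 11.5%, beside 6.46% and 9.73% of all genes. In summed bases both KO lists exceeded both WT lists at 6 genes (23.1%) and the reverse held at 5 (19.2%), beside 12% and 24% of all genes. After scaling to the list the counts were 8 and 4, beside 17.4% and 17.8% of all genes. The 4 genes with a KO-only region were Abca1 and Abcg1, the sterol efflux pumps, and Insig1 and Insig2, which hold back sterol synthesis. The Abca1 region lay on the gene, and those of Insig1, Abcg1 and Insig2 lay 1.72, 16.8 and 99.7 kb away. The Insig2 region lost its pattern when a call needed 50% of it covered, and in a merge over the untreated lists only. The WT-only region at Acaca lay on the gene, and those of Fabp5 and Ppara lay 64.5 and 65 kb away. The regions at Abca1, Abcg1 and Insig1 had no peak in any LPS list, and the region nearest Insig2 was called in all 4 of them. Cell cycle genes gave 5 with a WT-only region (Ccnd1, Ccnd2, Ccne1, Mcm5 and Mki67) and 1 with a KO-only one (Mki67), of 24. These are 20.8% and 4.17%, beside 9.73% and 6.46% of all genes, and within 25 kb of the gene 2 and 0 were left, on the gene body 0 and 0. Housekeeping genes gave 2 and 2 of 20 (10% each). Markers of other cell types with a genotype-only region were S100a9, Pdgfrb and Gata2 for WT, Col1a2 for KO and Flt3 for both. The part of other cells in any of these counts was not tested.

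The number of genotype-only regions is read here beside the other pairs of untreated lists that can share a call. The 4 pairs made of 1 WT and 1 KO list held 1201 (WT 1 and KO 1), 1519 (WT 2 and KO 2), 1301 (WT 1 and KO 2) and 853 (WT 2 and KO 1) regions. The 1393 KO-only regions lay within that range and the 1944 WT-only regions above it. Of the regions called in either of 2 lists, lists of the same genotype shared 74.8% (WT) and 75.6% (KO), and lists of different genotypes 73.3% to 74.6%. The ratio of WT-only to KO-only regions was 1.4. It was 0.985 when every list was trimmed to its widest peaks at the length of the shortest, so the surplus of WT-only regions was not there at equal list length. It was 0.646 without KO library 1, where KO-only regions need the call of only 1 list by construction, and 2.06 without WT library 2.

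**Figure D2:**
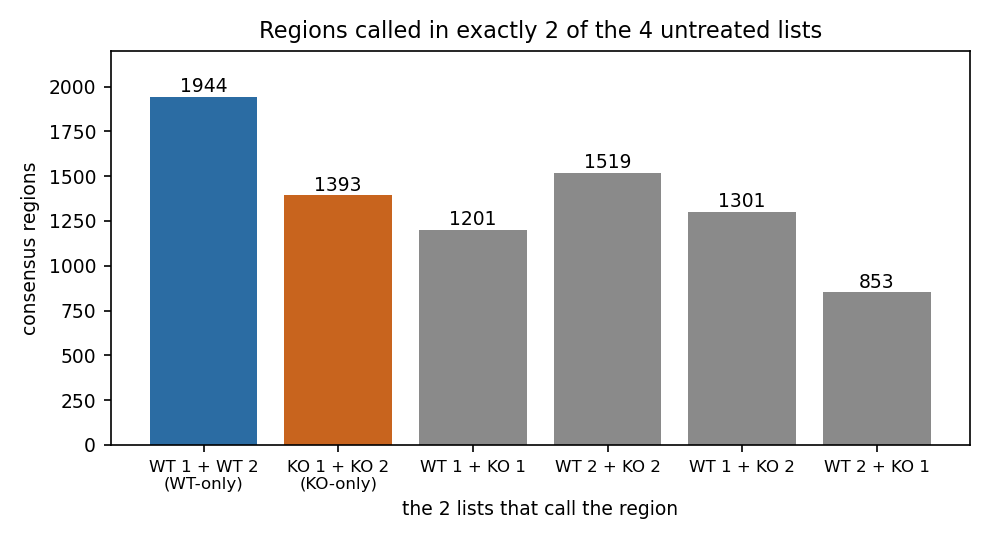
Regions called in exactly 2 of the 4 untreated lists (vertical axis), by which 2 lists call them (horizontal axis). The KO-only bar (1393) lies between the mixed bars, which run from 853 to 1519, and the WT-only bar (1944) lies above them.

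The 4 LPS lists allow a reading of the same regions in lists whose calls did not choose them. They did help to build the merged regions and may come from the same animals. If so, genotype and animal cannot be told apart in this reading. WT-only regions were called in 43.6% and 41.4% by the WT LPS lists and in 26.9% and 27.4% by the KO LPS lists. KO-only regions were called in 24.9% and 22.4% by the WT LPS lists and in 38.6% and 35.5% by the KO LPS lists. Regions called in 1 WT and 1 KO untreated list were called in 34.6% and 33.2% by WT and in 31.9% and 31.1% by KO. The genotype difference was thus 15.4 percentage points for WT-only regions, -13.4 for KO-only regions and 2.4 for the mixed pairs. In each of the 3 classes the lists of the genotypes did not overlap (two-sided exact permutation p = 0.333, the smallest possible). Leaving out 1 untreated library at a time gave 8.92 to 13.4 points for WT-only regions, lowest without WT library 2, and -10.7 to -3.86 points for KO-only regions, smallest without KO library 1. Regions called in all 4 untreated lists were called in 90.4% to 91.7% by every LPS list.

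**Figure D3:**
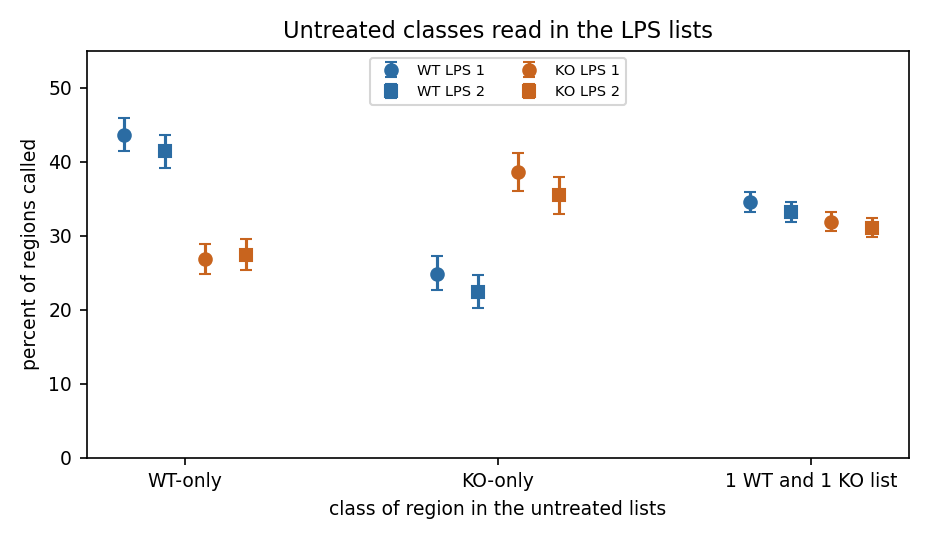
Share of regions of each untreated class that is called in each LPS list (vertical axis, percent), with 95% binomial intervals (exact) over regions, which cover counting error only. Blue WT LPS lists lie above orange KO LPS lists for WT-only regions and below them for KO-only regions.

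The genotype pattern held fully with LPS, in both lists of the genotype and neither of the other, at 202 WT-only regions (10.4%) and 128 KO-only regions (9.19%). It was turned round at 21 (1.08%) and 27 (1.94%). Of the mixed-pair regions 4.47% were called in both WT LPS lists alone and 2.95% in both KO LPS lists alone. No LPS list called 640 of the WT-only regions (32.9%) and 563 of the KO-only regions (40.4%).

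Of the WT-only regions that kept their pattern with LPS, the widest were nearest Rubcnl, Rbpms, Vcan, Zfp9, Zfp781, Wwp2, Dlg2 and Mllt10. Those at Zfp781, a zinc finger gene, and within Wwp2, which encodes a ubiquitin ligase, overlapped a RefSeq promoter window, and their sequences are shown for that reason, with that of Isg15. The window inside Wwp2 belongs to the predicted gene Gm39241. Each stretch is the 250 bases upstream of the start in GRCm38.p6 on the gene's strand, with TGGAAA in capitals. Zfp781 is at chr10:81930513-81930762, Gm39241 at chr8:107449280-107449529 and Isg15 at chr4:156200819-156201068, all on the minus strand.
Zfp781: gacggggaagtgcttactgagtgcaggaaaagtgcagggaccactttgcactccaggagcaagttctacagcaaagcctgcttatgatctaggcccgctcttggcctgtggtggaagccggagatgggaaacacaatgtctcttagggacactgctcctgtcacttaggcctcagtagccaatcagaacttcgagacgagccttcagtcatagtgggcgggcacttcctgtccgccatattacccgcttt
Gm39241: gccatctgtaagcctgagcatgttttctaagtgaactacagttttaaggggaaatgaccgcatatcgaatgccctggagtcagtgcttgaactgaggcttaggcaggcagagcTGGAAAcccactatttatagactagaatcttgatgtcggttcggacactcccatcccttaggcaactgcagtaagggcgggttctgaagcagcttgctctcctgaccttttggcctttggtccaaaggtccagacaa
Isg15: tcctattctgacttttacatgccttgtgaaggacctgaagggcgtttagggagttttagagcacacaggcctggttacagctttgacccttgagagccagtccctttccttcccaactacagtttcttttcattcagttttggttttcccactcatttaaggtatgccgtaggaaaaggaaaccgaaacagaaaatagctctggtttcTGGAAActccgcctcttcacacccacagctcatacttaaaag
The Zfp781 region, from 81930011 to 81930784, was covered over 556 and 737 bases in the untreated WT lists, 492 and 408 in the WT LPS lists and 0 in all 4 KO lists. The region in Wwp2, from 107449294 to 107449951, was covered over 620 and 632 bases in the untreated WT lists, 377 and 520 in the WT LPS lists and 0 in all 4 KO lists. Wwp2 and Nfat5 lie in the same 2 Mb window of chromosome 8, from 106000001 to 108000000, which had 7 WT-only and 2 KO-only regions of 84. The median window had 1 of each, and the highest WT-only count of any window was 8. Over all regions called in an untreated list the shares were 2.58% WT-only and 1.85% KO-only. The window is among the 8 with most WT-only regions, and of these it is named because it holds Nfat5. Its count is therefore a description.

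The motif TGGAAA, searched on both strands in windows from 250 bases before to 50 after each start, was in 22 of the 98 promoter windows that overlapped a WT-only region (22.4%) and in 7 of the 36 that overlapped a KO-only region (19.4%). It was in 21.4% of all windows and in 16.4% of those that overlapped a region called in all 4 lists. The longer tonicity element, which contains TGGAAA, was in 4.08%, 2.78%, 5.28% and 3.77% of the same classes of window.

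Of the WT-only regions within 100 kb of a gene, the one with the highest rank by width was within Mief1, a mitochondrial fission factor, on chromosome 15 from 80240306 to 80242363, with 1525 and 1814 bases in WT. With LPS it was called by both WT lists and by KO library 1, at 1506 bases. The next were nearest Adamts1, H4bc24, Topbp1, Hdac9, Trim2, Usp48, Prex1, Slco4a1, Nsmce2, Fmn1 and Jak3. The Trim2 region, at chromosome 3 from 84219213 to 84220164, had 820 and 809 bases in the untreated WT lists and 712 in each WT LPS list, but 182 in the LPS list of KO library 2. Jak3 encodes a kinase of cytokine receptors, and its region, 0.089 kb from the nearest RefSeq start site, had 901 and 606 bases in untreated WT and a peak in 1 LPS list, WT library 1, at 256. Wide WT-only regions were therefore not always WT-only in the second set of lists.

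Of the 12 widest KO-only regions 6, those nearest Kcnab1, Ryr2, Zfp950, Kcnh8, Olfr1223 and Fzd7, were also called in both KO LPS lists and neither WT LPS list. Of the 12 widest WT-only regions, 0 were called in both WT LPS lists and neither KO LPS list. The difference between these counts was not tested. Over all KO-only regions the share that kept the pattern was 9.19%, and over all WT-only regions 10.4%. The 0 depends on the cut at 12. WT-only regions nearest Rubcnl, Rbpms and Vcan kept the pattern at a mean width rank of 0.776 to 0.774, just below Jak3, the last of the 12, at 0.784. Kcnab1 encodes a potassium channel subunit, and its region, on chromosome 3 from 65195426 to 65197378, had 1076 and 1360 bases in the untreated KO lists and 1076 and 611 in the KO LPS lists. The Zfp950 region, 10.7 kb from this zinc finger gene, had 915 and 840 bases in untreated KO and 949 and 964 with LPS. The other 6 of the 12 KO-only regions, nearest Cdkl4, Mageb5, Rex2, Aig1, Col6a6 and Specc1, did not keep the pattern.

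The gene with most KO-only regions was Sgcd, a sarcoglycan 1020 kb long, with 6 of 13 regions. Ryr2, a calcium release channel and 554 kb long, had 5 of its 6. Cdh10 (197 kb), Cntnap2 (2240 kb) and Lingo2 (1250 kb), which encode proteins of the cell surface, had 4 each. The median length of the genes that KO-only regions overlapped was 113 kb. It was 91.5 kb for WT-only regions, 92.9 kb for mixed pairs, 98.9 kb for regions in 1 list and 62.2 kb for regions in all 4 lists. The Ryr2 region from 12027526 to 12028590 on chromosome 13 was covered over 897 and 1065 bases in the untreated KO lists and 917 and 848 in the KO LPS lists, with no peak in any WT list. None of the KO-only regions at these 5 genes was in a WT LPS list, while KO LPS lists called from 2 to 4 of them per gene. For WT the genes with most were Btbd9, Macf1, Man1a and Pde4d, with 4 each, and Atp9b with 3. Any 1 LPS list, WT or KO, called at most 2 of the WT-only regions of each of these genes. The genes were chosen by their counts, which are a description.

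Genotype-only regions were narrow and lay away from promoters. The mean peak width had a median of 264.8 bases in WT-only, 257.5 in KO-only and 522.2 in regions called in all 4 lists. A promoter window was overlapped by 4.79% of WT-only, 2.61% of KO-only and 20.9% of all-list regions, with chromosome 18 left out, for which the table holds no window. The mixed pairs had 3.54% and a median width of 256.5 bases, so narrow width and distance from promoters were shared with regions that 1 list of each genotype calls. Regions beyond 100 kb of a protein-coding gene made up 7.87% of WT-only, 14.7% of KO-only and 11.3% of mixed-pair regions. In the promoter share and the share beyond 100 kb the mixed pairs lay between WT-only and KO-only regions. WT-only regions ranged from 1.9% of regions on chromosome X to 2.94% on chromosome 12, with the Y chromosome, where 0 of 98 were WT-only, set aside.

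**Figure D4:**
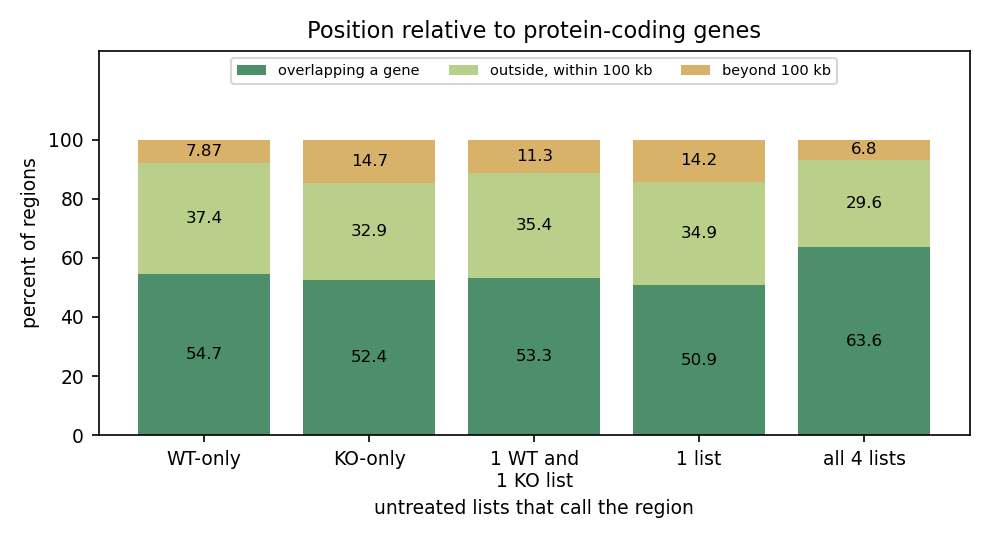
Position of regions relative to protein-coding genes (vertical axis, percent of regions), by the untreated lists that call them (horizontal axis). The part beyond 100 kb is 14.7% in KO-only and 7.87% in WT-only regions.

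In the 44099 regions called in all 4 lists the median covered width was 530 and 532 bases in WT and 520 and 518 in KO. The difference of the median log2 widths, WT minus KO, was 0.033, or 2.31%, with a within-genotype SD of at most 0.00393 (n = 2 each). The genotypes did not overlap, and the two-sided exact permutation p was 0.333, the smallest possible. The median width of shared regions was thus slightly higher in both WT lists. The median of the log2 differences taken region by region was 0.0178.

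For single regions limma, with Benjamini-Hochberg adjustment, called 0 of 44099 regions (0%) wider in either genotype at an adjusted p under 0.05. The smallest adjusted p was 0.65, and 1582 regions wider in WT (3.59%) and 1495 wider in KO (3.39%) had an unadjusted p under 0.05. These widths were centred on each list's median, and without centring the 2 counts were 1923 and 1245. The absence of calls does not show that widths were equal. In uncentred widths both WT lists were wider than both KO lists in 9058 regions (20.5%), and the reverse held in 6825 (15.5%). With LPS, of the first set 29.4% were again wider in both WT lists and 11% in both KO lists. Of the second set 16.4% were wider in WT and 24.8% in KO. Regions whose untreated widths overlapped gave 22.6% and 15.7%, so the order by genotype recurred with LPS in each set by several points more than in overlapping regions. A model term for the change of the genotype difference with LPS called 0 of 36009 regions in limma (smallest adjusted p 0.0915), with 2296 at an unadjusted p under 0.05.

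The regions with the smallest unadjusted p are given as candidates that did not pass. Spp1 encodes osteopontin, a secreted protein of macrophages. A region 26.5 kb from it, on chromosome 5 from 104407377 to 104408625, was covered over 1204 and 1180 bases in WT and 438 and 442 in KO, a 2.65-fold difference after centring each list on its median (log2 1.40, SE 0.0864). With LPS it was 977 and 1233 in WT and 999 and 948 in KO, so the genotypes overlapped. Csrnp1 encodes a nuclear protein, and a region that overlaps the gene and a RefSeq start site, on chromosome 9 from 119983149 to 119984063, was covered over 793 and 774 bases in WT and 272 and 282 in KO. There the WT lists stayed above with LPS, at 617 and 865 against 328 and 473. Gpr132 encodes a lipid-sensing receptor, and the region nearest it had 1012 and 1098 bases in WT and 512 and 496 in KO, and 624 and 658 against 550 and 472 with LPS. Of the 12 regions of this direction, 7 had both WT lists above both KO lists with LPS too, and 5 overlapped.

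In the other direction the region with the smallest p was at Zeb2, a zinc finger factor of myeloid cells, on chromosome 2 from 45113013 to 45114272. It was covered over 212 and 183 bases in WT and 971 and 1178 in KO, a 5.56-fold difference on the same centred scale (log2 -2.47 for WT minus KO, SE 0.187). With LPS the WT lists gave 785 and 798 bases and the KO lists 804 and 991, so the KO lists still lay above the WT lists. The region at Tnfrsf26, a receptor of the TNF family, had 261 and 270 bases in WT and 743 and 748 in KO, and the order turned with LPS to 773 and 706 against 243 and 260. Of the 12 regions wider in KO, 5 had the same order with LPS, 3 the opposite order and 4 overlapped.

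**Figure D5:**
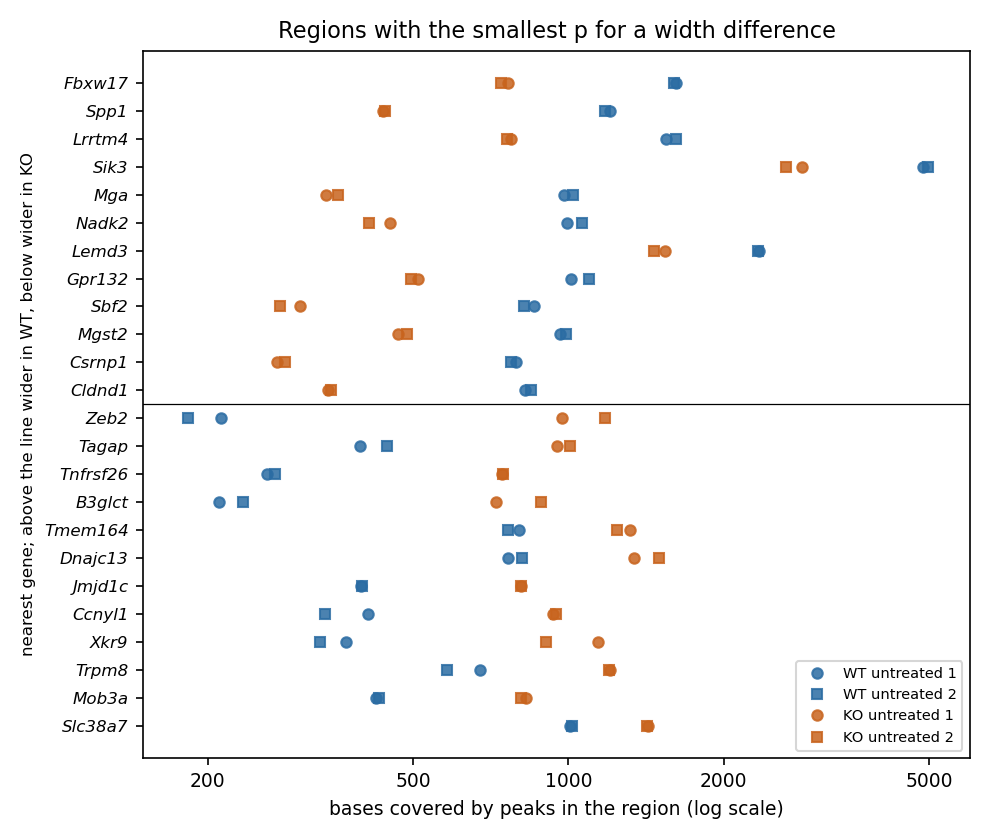
Bases covered by peaks (horizontal axis, log scale) in each untreated list at the 12 regions per direction with the smallest limma p, named by the nearest gene. Blue points are WT and orange points KO lists; they do not overlap in any row, which follows from the choice by p.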

How the data were processed

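ATAC-seq was measured in 8 mouse macrophage libraries, 2 per genotype and treatment. The authors deposited 1 list of peak positions per library, and the unit of the other columns is bases (start and end on GRCm38/mm10, without a score or count). The tools, per the submitters' processing notes, were MACS2 2.1.1, Bowtie2 2.3.0, bcl2fastq 2.17.1.14 and Picard. The labels and files give neither their settings, the duplicate filter and any shift of cut sites nor the depth of each library, so no counting interval for a peak can be given, and weak peaks depend on the unknown depth.

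Peaks of the main chromosomes were merged over all 8 lists at an overlap of at least 1 base. A list called a region when 1 of its peaks lay in it, and the covered bases were its width. Regions were given to the nearest of 21887 protein-coding RefSeq genes (GRCm38.p6) within 100 kb of the gene body. Promoter windows (32851, from 250 bases before to 50 after a start) came from RefSeq, GRCm38.p6. Log2 widths, centred on each library's median, were tested with limma 3.58.1 in R 4.3.3 (trend, Benjamini-Hochberg adjusted p under 0.05) over regions called in all 4 untreated lists. The region and limma code was tested on simulated data. For limma, calls of planted width changes were required only at a spread well below that of the untreated lists. That check does not show which changes limma could call in these data. Library values were compared with exact permutation tests.

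The members and the 20 gene lists (324 entries, 2 without a match) were chosen with earlier results of these data known. Some genes of the lists are not reported here. Named regions were, per direction, the 12 widest by mean rank in the lists that call them, the 8 widest with the same pattern with LPS, the 12 with the smallest limma p, the 5 genes with most regions, up to 4 genes per list and 16 fixed genes. Predicted genes were left out of these ranks, and Gm39241 is named only for its promoter window. The Slc6a12 and Slc5a3 sequences and the covered bases per gene lie outside the rule.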

Additional observations from a re-analysis of the deposited data

How the results depend on the processing

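Every alternative relates to peak calls of unknown depth, and a region that a list lacks may lie just under the caller's threshold. With each list trimmed to its widest peaks at equal length, the ratio of WT-only to KO-only regions turned from 1.4 to 0.985. With only the widest 50% of each list there were 1062 WT-only and 896 KO-only regions, a ratio of 1.19, and 18 of 53 named WT-only and 14 of 36 named KO-only regions were kept. A call that needs 50% of the region covered kept 44 and 28 of them, equal list length 46 and 32, a merge over the untreated lists only 52 and 35, and a merge of peaks up to 100 bases apart 53 and 36. With regions on the gene body only, 11 genes of the lists had a WT-only and 9 a KO-only region, in place of 34 and 22. Centred on the median width of all peaks of each list, the difference of median log2 width was 0.0226 in place of 0.033.

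Leaving out 1 untreated library leaves 1 list in a genotype, whose own class then needs fewer calls and the other genotype's class fewer absences. It gave 3646 to 6388 WT-only and 3103 to 5640 KO-only regions, and the ratio ran from 0.646 to 2.06, turned only without KO library 1 (0.646). The LPS difference ran from 8.92 to 13.4 points for WT-only and from -10.7 to -3.86 points for KO-only regions, list genes from 58 to 81 and from 41 to 66, and the median log2 width difference from 0.0302 to 0.0358. limma called 0 regions in each fit of the untreated genotype difference, with the smallest adjusted p between 0.112 and 0.768.

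The replicate numbers do not pair the samples by the labels, and the deviations of same-numbered libraries had a correlation of 0.0383 over regions. Chromosome X nevertheless held 2.93% (WT) and 3.03% (KO) of the peaks in untreated libraries numbered 1, and 2.53% and 2.68% in those numbered 2. With LPS these shares were 3.05% and 3.1% against 2.71% and 2.77%. The X share thus followed the replicate number, as the Y peaks did, and the reason was not tested. With the replicate number as a block limma called 0 regions wider in either genotype (smallest adjusted p 0.764, with 1478 and 1369 regions at an unadjusted p under 0.05).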

Other observations

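Some values belong in none of the comparisons above. Among 1314 windows of 2 Mb with a region, the one with most KO-only regions, 8 of 80, lay on chromosome 4 from 102000001 to 104000000, with 1 WT-only region; regions there were nearest Dab1, Mier1, Oma1, Pde4b and Sgip1. On chromosome 11 from 108000001 to 110000000, 8 regions were WT-only and 0 were KO-only. The windows were chosen for these counts, so they are a description.

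Gata2, a factor of mast cells and progenitors, had a WT-only region 4 kb from the gene with 204 and 288 bases, which the WT LPS lists covered over 273 and 232 bases and neither KO LPS list called.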
